A study of Mus musculus with 17 samples.

Results

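The surfactant protein genes are Sftpa1, Sftpb, Sftpc and Sftpd, which encode surfactant proteins A, B, C and D. The 4 genes were taken by symbol, matched to their Ensembl identifiers, from 43430 genes counted in each of the study's tables, and all 4 were present and passed the filter on low counts in both. RNA was sequenced from alveolar epithelial type 2 (AT2) cells sorted from 2-month-old C57BL/6J mice. The first experiment compared 4 libraries from naive mice given ISRIB with 4 from naive mice given vehicle (saline in the titles), sorted after 24 hours and made with poly(A) selection from 3 ng of RNA. ISRIB, the integrated stress response inhibitor, is a small molecule that acts on the translation initiation factor eIF2B. The second compared 5 libraries from mice 14 days after bleomycin, a drug that injures the alveolar epithelium, with 4 from naive mice, made with a total-RNA kit from 0.35 ng. All 9 total-RNA libraries carry the treatment label Vehicle and the word saline in their titles, so their controls and bleomycin samples share it. No dose or route is stated in the labels. Nothing in the labels states that replicates came from separate animals, so p-values measure the spread between these samples.

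Pulmonary surfactant is a film of phospholipid and protein that lowers surface tension in the alveolus, and AT2 cells make, store, secrete and take up most of it. SP-B and SP-C are small hydrophobic proteins cut from larger precursors and packed with lipid into lamellar bodies, where they help the film spread and re-form. SP-A and SP-D are collectins, secreted proteins with a collagen-like stalk and a lectin head that bind microbes and lipid and take part in lung defence and surfactant turnover. Transcription of these genes in AT2 cells is known to depend on NKX2-1 together with FOXA and C/EBP factors.

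Sftpa1 (ENSMUSG00000021789) lies at chr14:41131782-41136452 on the plus strand of GRCm38, with 6 exons. Sftpd (ENSMUSG00000021795) lies on the same chromosome at chr14:41172214-41185149 on the minus strand, with 7 exons, and the mannose-binding lectin gene Mbl1 is the only protein-coding gene model between them. Sftpc (ENSMUSG00000022097), with 5 exons, is at chr14:70520949-70524081 on the minus strand, 714 bases from Bmp1. Sftpb (ENSMUSG00000056370), with 11 exons, is at chr6:72304610-72314371 on the plus strand. No other gene model overlapped any of the 4, so counts made with or without strand would fall on the same gene. A stretch of coding sequence is shown for each collectin and for Sftpc because the results below separate Sftpd from both. In the collectin stretches the capitals mark glycine codons (GGN) spaced 1 in 3, the collagen-like repeat, and in Sftpc they mark valine codons (GTN), most of which lie in its valine-rich run. All are read 5′ to 3′ from the GENCODE M21 transcripts.
Sftpa1 coding bases 82 to 153: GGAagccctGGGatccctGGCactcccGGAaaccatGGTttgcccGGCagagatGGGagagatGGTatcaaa
Sftpd coding bases 133 to 204: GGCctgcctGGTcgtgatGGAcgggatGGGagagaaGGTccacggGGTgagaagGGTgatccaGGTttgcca
Sftpc coding bases 82 to 153: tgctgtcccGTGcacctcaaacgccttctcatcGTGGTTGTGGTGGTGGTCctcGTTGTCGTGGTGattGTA
The longest unbroken run of GGN codons at this spacing was 59 in Sftpd, whose coding sequence has 374 codons, against 13 in Sftpa1, which has 248. In Sftpc 17 of 193 codons, or 8.81%, were GTN. Sftpb had the most cysteine codons (TGC or TGT) of the 4, with 26 of 376.

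The 250 bases before the RefSeq start of Sftpa1 and Sftpb (GRCm38.p6) are shown because the factors that bind such promoters were measured in the same libraries. No promoter sequence was at hand for Sftpc or Sftpd, so theirs were not scanned. Capitals mark matches on either strand to TCAAG, a core sequence of NKX2-1 sites, to TGTTTNC, a FOXA core, and to TATAAA.
Sftpa1, chr14:41131538-41131787, plus strand: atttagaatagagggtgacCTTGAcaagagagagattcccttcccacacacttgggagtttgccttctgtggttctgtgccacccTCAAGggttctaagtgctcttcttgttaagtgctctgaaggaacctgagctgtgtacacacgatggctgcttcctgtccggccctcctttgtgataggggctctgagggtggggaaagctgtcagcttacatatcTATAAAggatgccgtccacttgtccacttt
Sftpb, chr6:72304360-72304609, plus strand: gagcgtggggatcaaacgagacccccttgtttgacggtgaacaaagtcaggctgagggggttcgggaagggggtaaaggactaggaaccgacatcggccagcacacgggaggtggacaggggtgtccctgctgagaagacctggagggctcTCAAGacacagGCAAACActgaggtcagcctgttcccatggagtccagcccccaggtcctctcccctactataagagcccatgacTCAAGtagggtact
Each promoter held 2 matches to TCAAG, and 35.9% of 32851 mouse promoter windows of this length hold at least 1. In Sftpb 1 of them, 95 to 99 bases before the start, lay beside a match to TGTTTNC at 82 to 88 bases, on the minus strand; 17.8% of windows hold that motif. Sftpa1 had TATAAA 25 to 30 bases before its start, found in 12.4% of windows. A C/EBP core, TTGCNNAA, matched neither window. These matches are letters in a window and were not tied to any change.

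Each poly(A) library held 10493574 to 15727139 gene counts and each total-RNA library 3295257 to 6333166, and all 4 genes were counted in every library. Naive total-RNA libraries held 3295257 to 4654479 counts and detected 17108 to 19763 genes. Bleomycin libraries held 3299824 to 6333166 counts and detected 13940 to 17112 genes. The part of this difference in the members' values was not tested. The 12 AT2 markers that are not surfactant proteins were detected in all groups. Summed over the list they reached 80240 to 87737 counts per 1000000 (unscaled CPM) with poly(A) selection, and 22848 to 40785 with the total-RNA kit. Lymphocyte markers summed to at most 1.52 unscaled CPM in any library. Lamp3, Abca3 and Slc34a2, which define the AT2 cell with the surfactant proteins, were thus present throughout.

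Levels of the 4 genes were first compared with each other within each group, in CPM (here scaled by TMM factors) per kilobase of merged exons. Sftpc stood far above the rest. In vehicle libraries it reached 105131 ± 1630 CPM per kilobase (SD, n = 4), against 9921 ± 250 for Sftpb, 8408 ± 386 for Sftpa1 and 1747 ± 114 for Sftpd. After ISRIB the levels were 101851 ± 6320 for Sftpc, 9868 ± 187 for Sftpb, 8473 ± 114 for Sftpa1 and 1793 ± 154 for Sftpd (n = 4). On this scale Sftpc was the highest of 11456 protein-coding nuclear genes tested, Sftpb was at place 3, Sftpa1 at place 4 and Sftpd at place 13, with the same places in both groups. Sftpb was above Sftpa1 in all 8 poly(A) libraries, by 1.08 to 1.25 times.

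In naive total-RNA libraries Sftpc was again highest, at 37259 ± 2885 CPM per kilobase (SD, n = 4), followed by Sftpa1 at 5272 ± 348, Sftpb at 4454 ± 416 and Sftpd at 1134 ± 106. In bleomycin libraries the order was the same, with 27527 ± 7172 for Sftpc, 4518 ± 1423 for Sftpa1, 4157 ± 886 for Sftpb and 1690 ± 390 for Sftpd (n = 5). Sftpa1 and Sftpb did not separate beyond their spread here: Sftpa1 was above Sftpb in 3 of 4 naive and 4 of 5 bleomycin libraries. Dividing by the longest transcript in place of merged exons put Sftpb at place 2 and Sftpa1 at place 3 in both groups. Sftpc and Sftpd kept the first and last places in all 17 libraries. The level of Sftpc exceeded that of Sftpd 28.2 to 36.1 times in naive libraries and 13.7 to 17.55 times in bleomycin libraries. Kit and RNA input differ between the experiments, so the levels are set side by side and not compared.

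**Figure D1:**
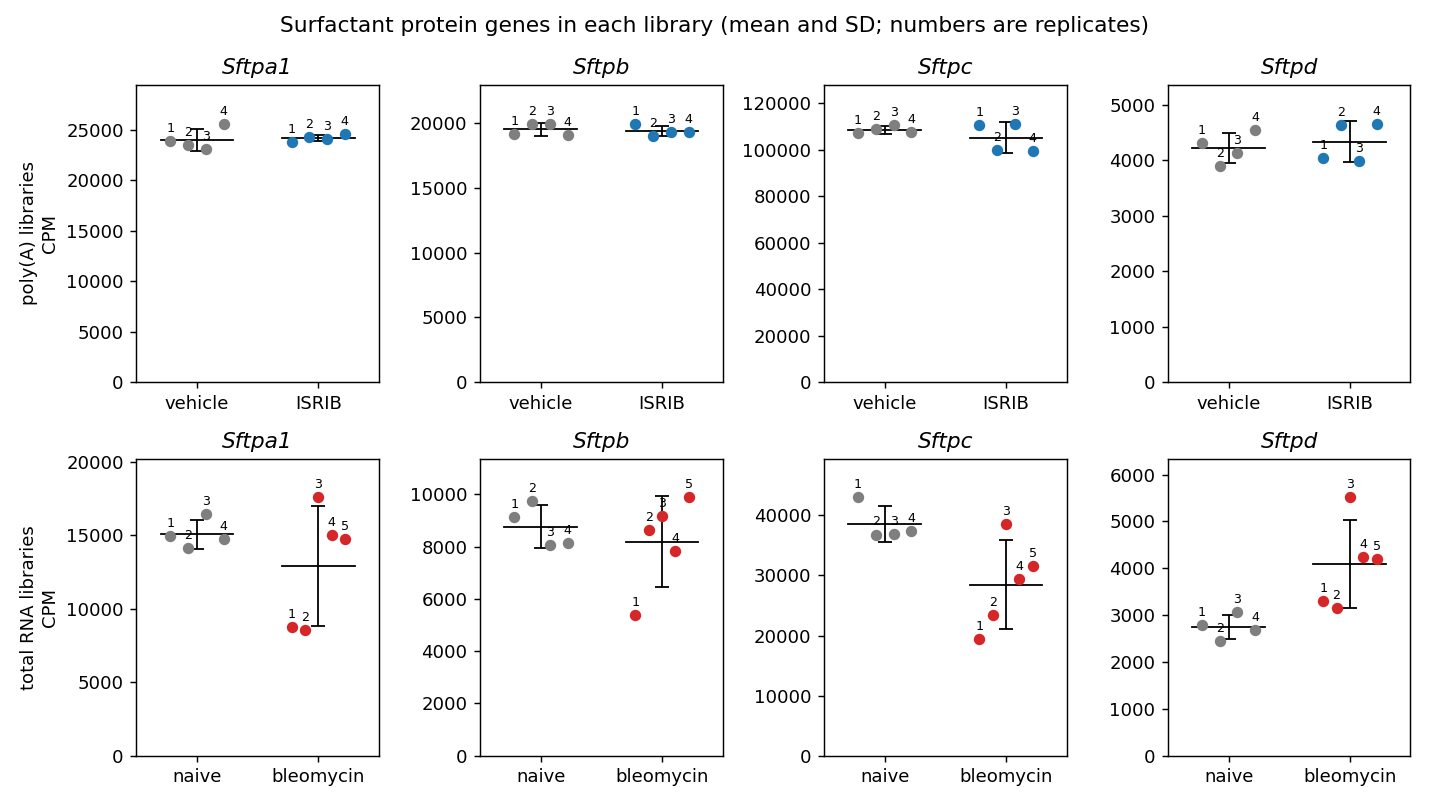
Level of each surfactant protein gene in every library, in CPM (not per length), with the poly(A) libraries in the upper row and the total-RNA libraries in the lower row. Points are libraries with their replicate numbers, the long line is the mean and the bars are the SD. Vehicle and ISRIB points overlap for all 4 genes, and only for Sftpd do all 5 bleomycin points lie above all naive points.

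The first comparison asked whether ISRIB altered these transcripts in uninjured AT2 cells. None of the 4 was called, that is, none had a Benjamini-Hochberg adjusted p under 0.05 in edgeR's quasi-likelihood test over all genes, against 2.20% of 12054 genes tested (1.10% higher and 1.10% lower). Their log2 fold changes lay between -0.05 and 0.04, and the groups overlapped for every gene, where 8.65% of all genes had groups that did not overlap (4.26% higher). The 95% confidence intervals were narrow. The widest bounds for any of the 4 were -0.16 for Sftpc and 0.17 for Sftpd on the log2 scale, or 0.893 and 1.13 times the vehicle level.

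Sftpc, the surfactant gene most specific to AT2 cells, measured 107242, 109160, 110893 and 107529 CPM in vehicle libraries 1 to 4. In ISRIB libraries 1 to 4 it measured 110633, 99811, 111301 and 99510. ISRIB 2 and 4 lay below every vehicle library and ISRIB 3 above every one, and the fold change was -0.05 ± 0.06 (log2, SE). Sftpd measured 4317, 3901, 4125 and 4551 CPM with vehicle and 4043, 4645, 3981 and 4662 with ISRIB. Here ISRIB 2 and 4 were the 2 highest of the 8 libraries, and the fold change was 0.04 ± 0.07 (adjusted p = 0.853, edgeR; 0.0006319 without vehicle 2 and 0.08 without ISRIB 3). The same 2 libraries had the highest summed AT2 markers, 86754 and 87737 unscaled CPM against 80240 to 82986 in the other 6. Their summed airway markers were the lowest, 3436 and 2454 against 3849 to 4341. The part of these shifts in the Sftpc and Sftpd values was not tested.

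After ISRIB, Sftpa1 and Sftpb varied less between libraries than Sftpc and Sftpd. Sftpa1 measured 23882, 23522, 23140 and 25638 CPM with vehicle and 23830, 24336, 24153 and 24607 with ISRIB. All 4 ISRIB values fell inside the vehicle range, and the fold change was 0.01 ± 0.05 (log2, SE; 95% interval -0.10 to 0.12). Sftpb measured 19140, 19974, 19924 and 19059 CPM with vehicle and 19930, 19053, 19335 and 19363 with ISRIB. Its fold change was -0.01 ± 0.05 (95% interval -0.11 to 0.10), and for both genes the sign turned when single libraries were left out. The coefficient of variation across vehicle libraries was 1.55% for Sftpc, 2.52% for Sftpb, 4.59% for Sftpa1 and 6.54% for Sftpd. Across ISRIB libraries it was 6.21% for Sftpc, 1.89% for Sftpb, 1.35% for Sftpa1 and 8.57% for Sftpd. The 4 genes together took 15.5% ± 0.114 of all gene counts with vehicle and 15.4% ± 0.425 with ISRIB (SD, n = 4 each; two-sided exact permutation test, p = 0.486).

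**Figure D2:**
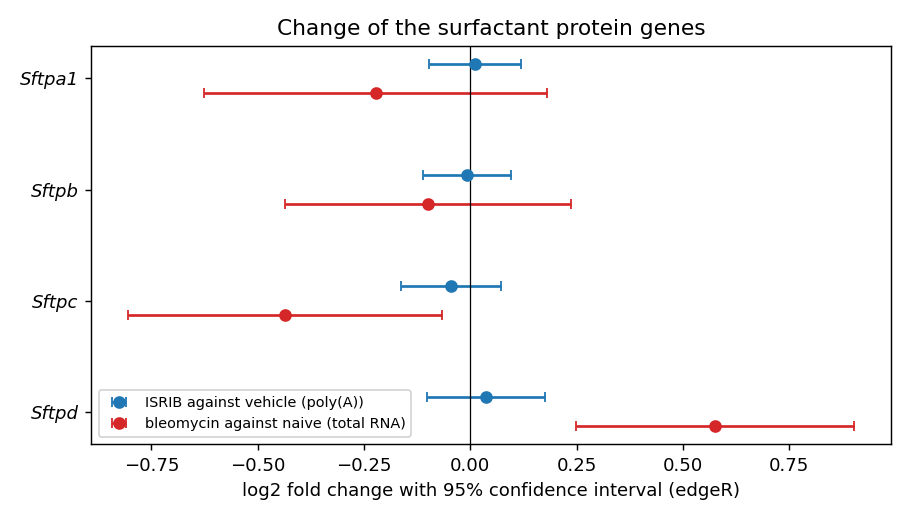
Change of each surfactant protein gene as a log2 fold change with its 95% confidence interval from edgeR, ISRIB against vehicle in blue and bleomycin against naive in red. The ISRIB intervals all include 0 and stay within -0.16 and 0.17, whereas the bleomycin intervals are wider, and those of Sftpd and Sftpc lie on opposite sides of 0.

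The second comparison asked how the same genes stood 14 days after bleomycin. Sftpd rose 1.49-fold (log2 0.58 ± 0.16, SE; 95% interval 0.25 to 0.90; adjusted p = 0.0133, edgeR). The other collectin, Sftpa1, and the hydrophobic pair Sftpb and Sftpc were not called, and their fitted changes were below 0. Thus 1 of 4 genes was called, against 20.5% of 11223 genes tested (11.2% higher and 9.31% lower), and that count by itself does not set the 4 apart from other genes. Because these are bulk libraries, fewer cells of a type and less RNA per cell cannot be told apart.

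Sftpd, the collectin with the long stalk, measured 2783, 2440, 3057 and 2685 CPM in naive libraries 1 to 4. In bleomycin libraries 1 to 5 it measured 3303, 3158, 5512, 4242 and 4206. All 5 bleomycin libraries were above all 4 naive ones, as was so for 10.4% of genes tested (19.7% had groups apart in either direction), and the lowest of them, bleomycin 2, was close to naive 3. The means were 2741 ± 255 and 4084 ± 942 CPM (SD, n = 4 and 5). Without naive 2 the fold change was 0.52 and its adjusted p rose to 0.0525.

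Sftpc measured 42987, 36814, 36932 and 37372 CPM in naive libraries 1 to 4 and 19347, 23416, 38494, 29468 and 31588 in bleomycin libraries 1 to 5. Bleomycin 1, 2, 4 and 5 were below every naive library, while bleomycin 3 lay inside the naive range. The fold change was -0.44 ± 0.18 (log2, SE; 95% interval -0.81 to -0.07), or 0.739 times the naive level. With edgeR the unadjusted p was 0.0229 and the adjusted p 0.0870, so Sftpc was not called. It was called with DESeq2 (-0.44, adjusted p = 0.0304), with limma-voom (-0.48, adjusted p = 0.0334) and with edgeR when bleomycin 3 was left out (-0.56, adjusted p = 0.0271).

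Sftpa1 measured 14975, 14129, 16473 and 14729 CPM in naive libraries and 8740, 8525, 17582, 14995 and 14769 in bleomycin libraries. Bleomycin 1 and 2 were far below every naive library, bleomycin 3 was above every one and the last 2 lay among them. The fold change was -0.22 ± 0.19 (95% interval -0.63 to 0.18; adjusted p = 0.455, edgeR), and it was -0.11 without bleomycin 1, -0.10 without bleomycin 2 and -0.35 without bleomycin 3. Sftpb measured 9116, 9756, 8047 and 8142 CPM in naive libraries and 5366, 8644, 9176, 7835 and 9885 in bleomycin libraries. Only bleomycin 1 was far below the naive range, and without it the fold change turned from -0.10 (95% interval -0.43 to 0.24) to 0.02.

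Spread among bleomycin libraries exceeded that among naive ones for every gene. The coefficient of variation was 31.5% against 6.61% for Sftpa1, 21.3% against 9.34% for Sftpb, 26.1% against 7.74% for Sftpc and 23.1% against 9.30% for Sftpd. The share of all gene counts held by the 4 genes was 6.25% to 6.35% in naive libraries and 3.57% to 7.21% in bleomycin libraries. Its means, 6.30% and 5.47%, differed by less than the spread of the bleomycin group (two-sided exact permutation test, p = 0.325). Bleomycin 1 and 2 held the lowest Sftpa1, Sftpc and Sftpd of the bleomycin group. They also had the lowest summed AT2 markers, 22848 and 29846 unscaled CPM against 32921 to 40785 in the other 3 (naive 35297 to 40075). They had the highest summed fibroblast markers, 58.9 and 131 against 19.6 to 32.4 (naive 5.07 to 13.05). Ribosomal-RNA-like and mitochondrial genes took 31.8% and 29.3% of their counts, against 21.8% to 26.4% in the other 3. Naive libraries were at 25.45% to 32.91%, so on this measure bleomycin 1 and 2 lay within the naive range. The part of these shifts in the members' values was not tested.

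Between the groups, AT1 markers summed to 1774 to 2011 unscaled CPM in naive and 2877 to 3297 in bleomycin libraries. Of the 11 tested, 8 were called higher (edgeR). Over all genes tested 11.2% were called higher and 9.31% lower, the background for each marker count given here. Macrophage markers summed to 17.2 to 26.4 and 46.7 to 75.8, with Marco at 0 in both groups and Adgre1, Itgax and Ear2 at 0 after bleomycin. Much of this sum was Cd14, with means of 14.3 ± 3.82 and 47.9 ± 9.78 scaled CPM. Endothelial markers summed to 23.0 to 33.7 and 26.5 to 94.2. Of these, 1 of 3 tested macrophage markers (Cd14) and 2 of 6 tested endothelial markers (Cdh5 and Vwf) were called higher, as were 3 of 4 tested fibroblast markers (Col1a1, Col1a2 and Col3a1). Airway marker sums overlapped, at 488 to 929 and 579 to 1065, while 2 of 8 tested airway markers, the ciliated cell genes Foxj1 and Ccdc153, were called higher. Of the 12 AT2 markers, 2 were called higher (Napsa and Muc1) and 3 lower (Etv5, Cd36 and Fabp5). The 3 called fibroblast markers are all collagen genes. Among the untested ones Lum was at 0 in both groups and Tcf21 at 0 after bleomycin. Dcn had 1 summed count in naive and 51 in bleomycin libraries. Apart from that of AT1 markers, these counts come from short lists and do not by themselves set a cell type apart. How far the marker differences entered the surfactant protein values was not tested.

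A ratio of 2 genes within a library needs no scaling between libraries, so the 6 ratios among the 4 genes were compared next in each experiment, with p-values adjusted over all 12. After bleomycin the collectin Sftpd moved apart from Sftpc and from Sftpa1. There were 0.0647 to 0.0828 counts of Sftpd per count of Sftpc in naive libraries and 0.133 to 0.171 in bleomycin libraries. This was a 2.03-fold increase (log2 1.02), with no overlap between groups. Sftpd per Sftpa1 went from 0.173 to 0.186 in naive libraries to 0.283 to 0.378 in bleomycin libraries, 1.78-fold (log2 0.83), again with no overlap. Both ratios contain Sftpd, which was itself called with its groups apart, so they are not separate support for its change. Single genes had groups apart in 19.7% of those tested, and how often ratios of other genes separate was not examined. Both gave p = 0.00794 in a two-sided exact permutation test, the smallest that 4 against 5 libraries allow, and an adjusted p of 0.0476. With any 1 library left out the smallest p reachable was 0.0179 or 0.0286 before adjustment over the 12 ratios. The adjusted p was then 0.0857 to 0.171, and neither ratio passed. Such fits have too few arrangements to decide whether a pass rests on 1 library. In them the differences stayed at 0.96 to 1.10 and 0.78 to 0.88 on the log2 scale. Bleomycin 1 and 2, lowest of their group in all 3 of these genes, had both ratios above every naive library, as did the other 3.

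The remaining ratios did not pass the adjustment. Sftpd per Sftpb was 1.60-fold higher in mean (adjusted p = 0.0952, exact permutation test) and Sftpc per Sftpb was 0.785 times the naive value (adjusted p = 0.119). Sftpc per Sftpa1 differed by -0.19 (adjusted p = 0.305) and Sftpb per Sftpa1 by 0.16 (adjusted p = 0.720) on the log2 scale. After ISRIB the differences in the 6 log2 ratios lay between -0.06 and 0.08, none passed, and adjusted p-values were 0.637 to 0.743 (exact permutation test; 4 against 4 cannot go below p = 0.0286).

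**Figure D3:**
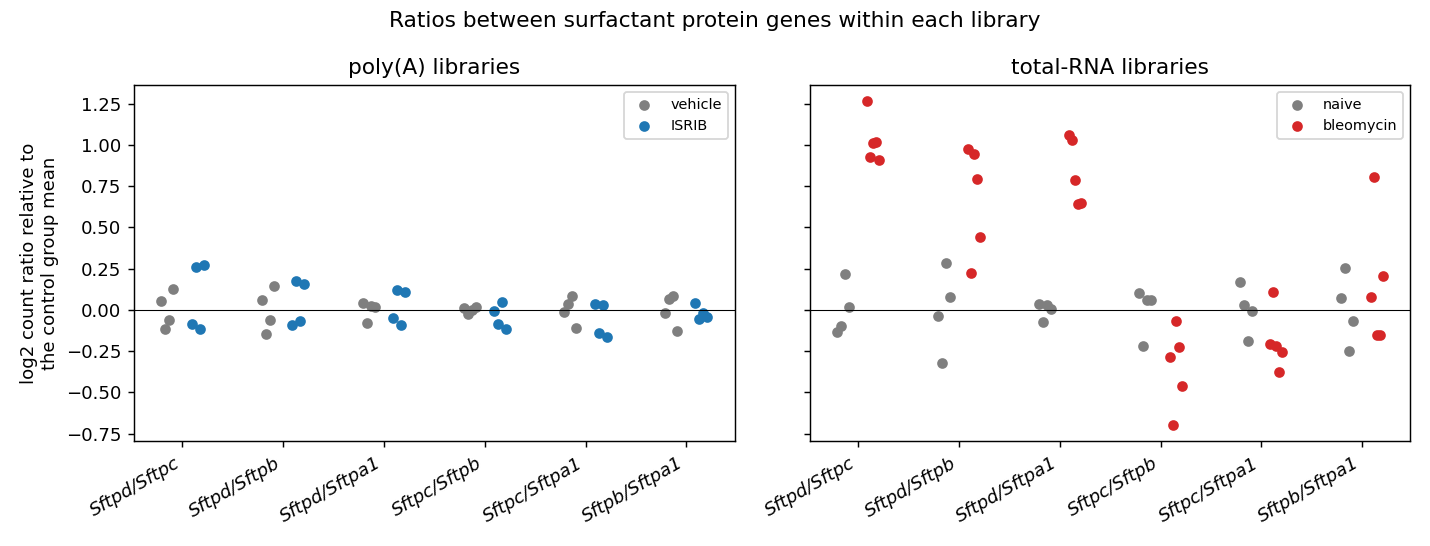
Log2 count ratio of each pair of surfactant protein genes in every library, relative to the mean of its control group; grey points are vehicle or naive libraries, blue points ISRIB and red points bleomycin. In the right panel the red points of Sftpd/Sftpc and Sftpd/Sftpa1 lie wholly above the grey ones, and in the left panel blue and grey points overlap for all 6 pairs.

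The genes around the 4 were then examined. Sftpa1 and Sftpd flank Mbl1, a serum collectin gene, which had few counts and was not called in either experiment (bleomycin -0.54, adjusted p = 0.188, edgeR). On the other side of Sftpa1, Mat1a, a methionine adenosyltransferase gene, rose from 12.2 ± 1.03 to 33.8 ± 13.2 CPM after bleomycin (log2 1.48, adjusted p = 4.7e-04). Bmp1, the procollagen C-proteinase gene next to Sftpc, fell from 294 ± 28.7 to 132 ± 31.7 CPM (-1.16, adjusted p = 3.8e-05). Lgi3, on the other side of Sftpc, was at -0.33 (adjusted p = 0.0635). Beside Sftpb, the splicing factor gene Usp39 rose (0.59, adjusted p = 0.0274) and Atoh8 was not called (0.29, adjusted p = 0.757). None of these neighbours was called after ISRIB (edgeR), and Gm2832, beyond Sftpd, had at most 1 count in each table.

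The pathway around surfactant proteins was described with a list of 79 other genes in 6 roles. It was drawn up with earlier results of these data known, so its counts are not independent evidence. After ISRIB 71 were tested, of which 2 rose and 6 fell (edgeR), and the median log2 fold change was -0.05, against 0.00 over all genes tested. After bleomycin 69 were tested, of which 9 rose and 15 fell, and the median was -0.03. The background of 20.5% called after bleomycin applies to the second count and that of 2.20% to the first.

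Genes of proprotein processing and handling came first, a role that also took in general endoplasmic reticulum chaperones and Ckap4. After bleomycin 5 of 9 tested rose and 1 fell, against 11.2% and 9.31% of all genes. Napsa and Ctsh encode napsin A and cathepsin H, proteases that trim the SP-B and SP-C precursors, and rose by 0.40 ± 0.14 (adjusted p = 0.0425) and 0.51 ± 0.15 (adjusted p = 0.0220, edgeR). Calr, an endoplasmic reticulum chaperone, rose from 412 ± 25.5 to 895 ± 230 CPM (log2 1.12), and Ckap4, a membrane protein also known as an SP-A receptor, rose from 37.6 ± 2.53 to 77.9 ± 16.7 CPM (log2 1.05). Nedd4l, a ubiquitin ligase that binds the SP-C precursor, fell (-0.53, adjusted p = 0.0123). The Napsa call was lost when naive 1, 2, 3 or 4 or bleomycin 2, 3, 4 or 5 was left out (highest adjusted p 0.144). The Ctsh call was lost without naive 1, 3 or 4 or bleomycin 3 (highest adjusted p 0.0893). After ISRIB Calr fell by 0.38 ± 0.06, from 610 ± 47.0 to 470 ± 19.5 CPM (adjusted p = 0.00359, edgeR), and Dnajb9, another chaperone gene, rose by 0.44 ± 0.11 (adjusted p = 0.0372). The Dnajb9 call was lost without vehicle 1, 2 or 3 or ISRIB 1, 3 or 4 (highest adjusted p 0.133), and Napsa and Ctsh were not called (0.07 and -0.11).

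Of the genes for lamellar body storage and secretion, 0 of 15 were called after ISRIB and 1 of 15 after bleomycin (edgeR). Over all genes 2.20% and 20.5% were called, so neither count by itself sets this role apart. The gene called after bleomycin was Vamp2, a vesicle fusion protein gene, which fell from 60.7 ± 4.55 to 32.8 ± 9.24 CPM (-0.88, adjusted p = 0.00149). Abca3, the pump that loads lipid into lamellar bodies, was at -0.26 ± 0.11 after bleomycin (adjusted p = 0.106) and at 0.01 ± 0.05 after ISRIB. Its level in all 5 bleomycin libraries was below every naive one, as was so for 1049 of 11223 genes tested. Lamp3, a lamellar body membrane protein, was at -0.11 (adjusted p = 0.644) and -0.05 (adjusted p = 0.752).

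Lipid synthesis genes that were called all fell. After bleomycin they were 6 of 17 tested (9.31% of all genes fell), led by Insig1, which holds the SREBP complex back in the endoplasmic reticulum (-0.93 ± 0.14, adjusted p = 1.2e-04, edgeR), and Fabp5, a fatty acid carrier (-0.89 ± 0.21, adjusted p = 0.00517). Lpcat1, the acyltransferase of surfactant phosphatidylcholine, was at 0.05 (adjusted p = 0.799), and Scd1, the stearoyl-CoA desaturase, at 0.44 (adjusted p = 0.0992). Fasn, the fatty acid synthase gene, was at 0.31 and not called (adjusted p = 0.0707, edgeR). For Fasn every bleomycin library lay above every naive one, as was so for 10.4% of genes tested. The median log2 fold change over the 17 tested was -0.05. After ISRIB 3 of 17 fell (1.10% of all genes). Scd1 went from 27342 ± 2430 to 21961 ± 1211 CPM (-0.32, adjusted p = 0.0176), Gpam, the first acyltransferase of glycerolipid synthesis, changed by -0.28 (adjusted p = 0.0147) and Acly, the ATP citrate lyase, by -0.26 (adjusted p = 0.0430). The Scd1 call was lost without vehicle 2 or 3 (highest adjusted p 0.0713), that of Gpam without vehicle 2 (0.0582), and that of Acly without any 1 vehicle library or without ISRIB 2 or 4 (highest 0.126). Lpcat1 was at -0.02 after ISRIB.

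Transcription factors linked to the surfactant protein genes included 2 that rose and 5 that fell among 16 tested after bleomycin, where 11.2% and 9.31% of all genes did. Nkx2-1, whose product's core sequence is marked in the Sftpa1 and Sftpb promoters above, fell from 371 ± 14.3 to 270 ± 30.5 CPM (-0.46 ± 0.11, adjusted p = 0.00685, edgeR). All 5 bleomycin libraries were below all naive ones, as was so for 1049 of 11223 genes tested. Neither Sftpa1 nor Sftpb was called. Foxa1 fell by 0.58 ± 0.14 on the log2 scale (adjusted p = 0.00729), and its relative Foxa2 was at -0.29 (adjusted p = 0.0821). Tfcp2l1 had the largest fall of the called factors (-0.87, adjusted p = 6.3e-05), Etv5, a factor that maintains AT2 identity, also fell (-0.43, adjusted p = 0.0199), and Cebpa was at -0.19 (adjusted p = 0.242). Hopx, an AT1 factor, rose from 7.26 ± 0.893 to 17.4 ± 4.31 CPM (1.27, adjusted p = 0.00117), and Wwtr1, which encodes TAZ, rose by 0.45 (adjusted p = 0.0319). The Wwtr1 call was lost without naive 2, 3 or 4 or bleomycin 1 or 2 (highest adjusted p 0.1195) and that of Etv5 without naive 1, 2 or 4 or with no scaling factor (highest 0.0716). After ISRIB, where 1.10% of all genes rose and 1.10% fell, 1 of 16 rose, Cebpd (0.37, adjusted p = 0.0319), and 2 fell, Tfcp2l1 (-0.35, adjusted p = 0.0176) and Etv5 (-0.28, adjusted p = 0.00817). The Cebpd call was lost without vehicle 1 or 3 or ISRIB 3 or 4 (highest adjusted p 0.120) and that of Tfcp2l1 without vehicle 2 (0.0668). Nkx2-1 (-0.09), Foxa2 (-0.03) and Cebpa (-0.15) were not called after ISRIB.

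Uptake and sensing genes were called in 3 of 9 tested after bleomycin and 0 of 10 after ISRIB (edgeR), beside 20.5% and 2.20% of all genes, so neither count sets this role apart. Cd14, a lipopolysaccharide co-receptor that SP-A and SP-D bind, rose from 14.3 ± 3.82 to 47.9 ± 9.78 CPM (log2 1.76, adjusted p = 1.1e-05). It is also a macrophage marker and makes up much of the macrophage sum given above. Tlr4 fell (-0.73, adjusted p = 0.0230), as did Adgrf5, the receptor by which AT2 cells sense the surfactant pool (-0.35, adjusted p = 0.0475). The Tlr4 call was lost without naive 1, 2 or 4 (highest adjusted p 0.0670), and that of Adgrf5 without any 1 naive library or bleomycin 1, 2, 3 or 4, with no filter and with no scaling factor (highest adjusted p 0.164). Adgrf5 was at -0.01 after ISRIB. Among the relatives Psap, which encodes prosaposin and shares the saposin fold with SP-B, rose after bleomycin (0.54, adjusted p = 0.0365), a call lost without naive 1, 2 or 4 or bleomycin 2 and with limma-voom (highest adjusted p 0.1285). Of the 8 relatives 3 were tested in each experiment. The liver and soluble collectins Mbl2, Colec10 and Colec11 had at most 8 summed counts in any group.

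**Figure D4:**
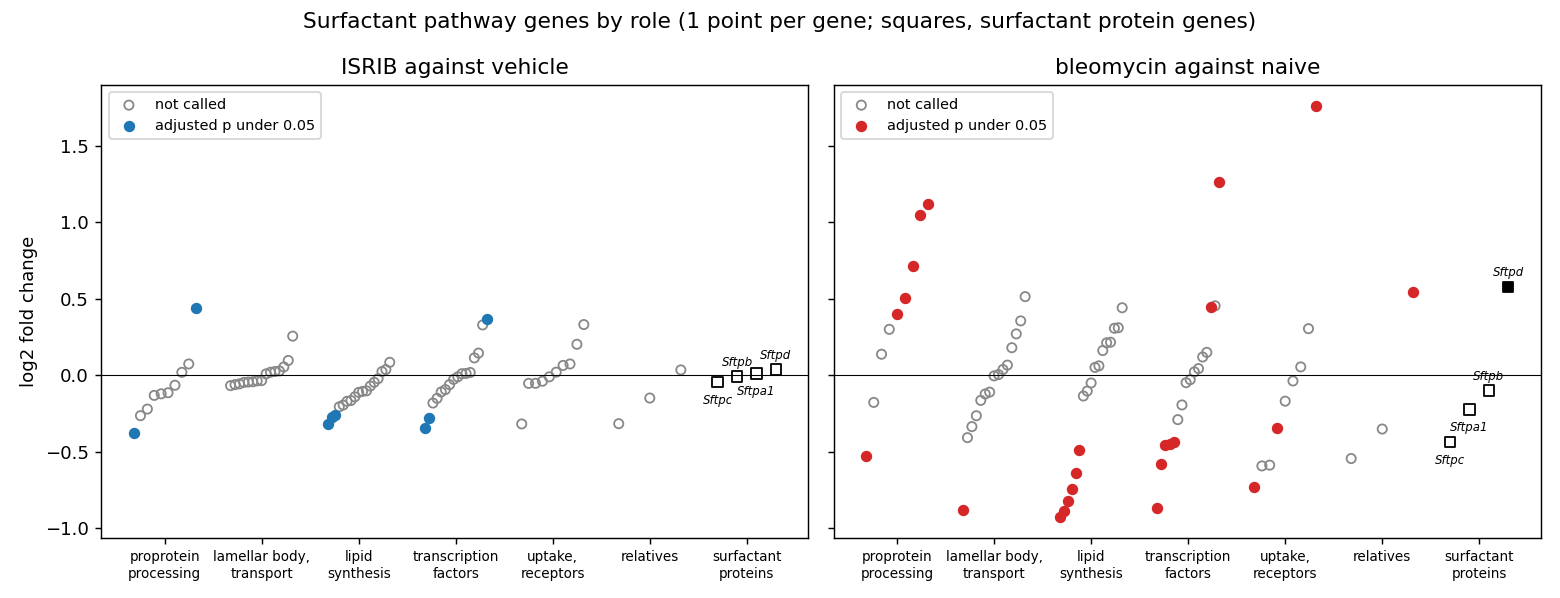
Log2 fold change of each tested gene of the surfactant pathway list by role, ISRIB against vehicle on the left and bleomycin against naive on the right; circles are listed genes, squares the 4 surfactant protein genes, and filled symbols have an adjusted p under 0.05 (edgeR). After bleomycin the filled lipid synthesis genes all lie below 0, 5 of the 6 filled processing genes lie above it, and of the squares only Sftpd is filled.

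Genes with the most similar profiles were found for each member among those of at least 10 CPM in mean, by the root mean square difference in log2 CPM from the member, each gene taken relative to its control mean. Over the 9 total-RNA libraries and 7875 genes, the 3 nearest to Sftpd were H2-Ab1, a class II histocompatibility gene (0.0961), Opa3 (0.1005) and Serpinb9, a granzyme B inhibitor gene (0.130). The other surfactant protein genes were far from it, with differences of 0.568 for Sftpb, 0.636 for Sftpa1 and 0.775 for Sftpc, all above the median gene's 0.544. Sftpa1 and Sftpc were nearer to each other (0.204), at place 47 of the genes ordered from Sftpa1 and place 84 from Sftpc. Nearest to Sftpa1 were Mmp15 (0.0987), Sbds (0.103) and P4ha1 (0.128), and Slc37a1 (0.106) and Wtap (0.122) were among the nearest to Sftpc. Sftpb was nearest to Kif1bp (0.0991), Egln1 (0.0995) and Cxcl15 (0.104), the last a chemokine gene of lung epithelium. Over the 8 poly(A) libraries and 8190 genes the nearest were Brk1, Zdhhc3 and Ywhaz for Sftpa1, Rps2, Tmbim6 and Eef1b2 for Sftpb, Pla2g1b, Rpl7 and Fis1 for Sftpc, and Eif4a3, Fbxo4 and Itpr1 for Sftpd, at 0.0206 to 0.0415. Profiles within an experiment share libraries, so likeness is a description only.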

How the data were processed

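Deposited counts, made by the authors as raw reads per Ensembl gene in 2 tables (43430 genes, 42462 with a symbol), were used without change. Per the submitters' processing notes, the tools were bcl2fastq 2.19.1, FastQC, Trimmomatic 0.36, STAR 2.6.0 and HTSeq 0.11.2, with build mm10; neither settings, strand option nor annotation release is stated there. Each experiment was fitted alone on all genes with edgeR 4.0.16 (R 4.3.3): filterByExpr (minimum count 10, minimum total 15), TMM scaling, quasi-likelihood F test, group as the only term, Benjamini-Hochberg adjustment. CPM use TMM-scaled library sizes, whereas marker sums use unscaled totals. Levels per kilobase use merged exons of GENCODE M21. SEs are the fold change over the square root of F. The fit was tested on simulated counts. Ratios and shares used two-sided exact permutation tests. Alternatives were RLE, no scaling factor, members or ribosomal-RNA-like and mitochondrial genes left out, no filter, DESeq2 1.42.0, limma-voom (limma 3.58.1), a replicate block and leaving out each library. Members and lists were chosen with earlier results of these data known. Named genes were the members, a panel of 11 pathway genes, the 3 nearest profiles per member and flanking genes. In each role the 2 called genes with the largest rise and the 2 with the largest fall were also named. Acly after ISRIB, Fasn, Muc1 and Cd36 were named after their values were seen. Library totals limit precision; intervals and p-values cover the spread between libraries. One gene that the rule for nearest profiles names is not reported here.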

Additional observations from a re-analysis of the deposited data

Results flagged for a closer look

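In the group of 4 naive libraries, 3 had Sftpc between 36814 and 37372 CPM. Naive 1 was far above them at 42987 CPM, the highest (gap over range 0.903 on the log2 scale). Its TMM factor, 0.911, was the lowest of the total-RNA libraries, and its ribosomal-RNA-like and mitochondrial share, 32.9%, the highest. Naive 2 had the lowest count ratio of Sftpc to Sftpb, 3.77, against values up to 4.72 in its group (gap over range 0.879 on the log2 scale). The rule for flags was applied to each member, each ratio and the share of counts in every group. Chance flags about 1 in 20 groups examined in this way, so flags such as these can arise by chance.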

How the results depend on the processing

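Between the members, Sftpd after bleomycin kept its sign in all 17 alternatives (0.45 to 0.66) and its call in 16, the exception being without naive replicate 2 (0.5234, adjusted p = 0.05253, edgeR). Sftpc after bleomycin was called in 3, DESeq2 (-0.4374), limma-voom (-0.4779) and without bleomycin replicate 3, and ranged from -0.5628 to -0.3223 over the fits leaving out 1 library. Signs turned for changes near 0. Sftpb after ISRIB was 0.007881 with no scaling factor, and -0.0218 to 0.003427 leaving out 1 library (without vehicle 3 0.002218, without ISRIB 2 0.001517); Sftpa1 after ISRIB was -0.006864 to 0.04061, and Sftpb after bleomycin -0.1693 to 0.02364. So did log2 ratios leaving out 1 library: after ISRIB Sftpd to Sftpb spanned -0.005711 to 0.09087, Sftpd to Sftpa1 -0.009613 to 0.06089 and Sftpb to Sftpa1 -0.06239 to 0.00827, and after bleomycin Sftpb to Sftpa1 spanned -0.004704 (without bleomycin 2) to 0.2407. The cause was not tested. Genes called after ISRIB numbered 648 without a filter, 406 with DESeq2, and 86 to 269 leaving out 1 library, the lowest 3 being without vehicle 1 (86), vehicle 2 (102) and ISRIB 4 (159), against 265. Pathway genes called higher after ISRIB were 4 without a filter and 0 to 2 leaving out 1 library, those lower 2 to 6, and those higher after bleomycin 5 to 11, with the 5 without naive replicate 4. With the longest transcript Sftpa1 was at place 3 and Sftpb at place 2 in naive and bleomycin libraries.

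Replicate numbers were shared by the groups. Deviations of same-numbered libraries correlated at -0.109 to 0.0849 (ISRIB) and -0.0393 to 0.0474 (bleomycin). Libraries with different numbers correlated at -0.164 to 0.137 and -0.162 to 0.107. Same-numbered libraries thus did not stand out, though 4 pairs per experiment cannot show that pairing was absent. With the replicate block no ratio between members passed after bleomycin (0 of 6); 4 pairs cannot go below p = 0.125 in the exact permutation test. The block also ended the calls of Napsa, Gata6 and Psap after bleomycin and of Acly after ISRIB (edgeR). Leaving out 1 library gave 0 passing ratios as well. The smallest p then reachable before adjustment was 0.01786 or 0.02857, so these fits cannot decide whether a pass rests on 1 library.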
